A study of Mus musculus with 13 samples.

Results

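The respiratory chain of the inner mitochondrial membrane is built from nuclear-encoded subunits, which are the genes described here, and from a few subunits that the mitochondrial genome encodes. Members were chosen by symbol. They are the genes whose symbols start with Ndufa, Ndufb, Ndufc, Ndufs or Ndufv and a digit, with Uqcr, with Cox4i, Cox5, Cox6, Cox7 or Cox8, and the genes Sdha, Sdhb, Sdhc and Sdhd. Symbols of pseudogenes that end in -ps were left out. The rule found 67 of 23337 genes in the table of EKLF+/+ and EKLF-/- cells, and 71 of 35389 genes in that of EKLF/GFP+ and EKLF/GFP- cells. In the single-cell table it found 71 of 54227 genes. The 71 members comprise 38 of complex I, 4 of complex II, 8 of complex III and 21 of complex IV. Ndufa4 and Ndufa4l2 were placed in complex IV, to which Ndufa4 belongs in spite of its name. The 4 members without a row in the smaller table, Ndufa11b, Ndufb4c, Ndufs6b and Cox6c2, are annotated as processed pseudogenes despite their symbols. The other 67 are annotated as protein-coding.

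The cells were F4/80+ cells from fetal livers of mouse embryos at age E13.5, the stage at which macrophages host maturing red cells in erythroblastic islands. EKLF (the gene Klf1) is a zinc-finger transcription factor best known as an activator of erythroid genes. The bulk libraries were made from polyA RNA of 4 groups of 3 biological replicates: EKLF+/+ cells, EKLF-/- cells, and EKLF/GFP+ and EKLF/GFP- cells. The GFP cells were sorted from pEKLF/GFP embryos, in which the EKLF promoter drives GFP, so that GFP stands for promoter activity and not for EKLF protein. A single-cell library came from 1 EKLF+/+ sample of pooled littermates, selected with beads. The labels give the strain as C57BL/6 for every sample, while the study's key resources give another background, 129S4/SvJae, for the EKLF-null line. Strain and genotype therefore cannot be told apart if the groups differed in background. By the labels, RNA of the EKLF/GFP+ cells was extracted with a Nanoprep kit and that of all other bulk libraries, EKLF/GFP- included, with Trizol. Extraction and GFP group therefore cannot be told apart. The study reports lower RNA integrity for EKLF/GFP+ cells than for EKLF+/+ and EKLF-/- cells, and gives no value for EKLF/GFP- cells.

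Electrons from NADH enter the chain at complex I (NADH dehydrogenase), and those from succinate enter at complex II (succinate dehydrogenase), which is also an enzyme of the tricarboxylic acid cycle. Complex III passes them to cytochrome c, and complex IV (cytochrome c oxidase) reduces oxygen to water. Several small subunits of complex IV exist as a widely expressed isoform and a tissue-restricted one. In red cell formation mitochondria supply ATP and carry out steps of heme synthesis, and they are removed before the cell becomes an erythrocyte.

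Between 10695514 and 15362161 reads per library were counted on genes in EKLF+/+ and EKLF-/- cells, and between 22721900 and 28735322 in the EKLF/GFP libraries. Klf1 was measured first, as a check of the labels. It lay at 3977 to 4906 normalized counts in EKLF+/+ cells and at 745.5 to 838.4 in EKLF-/- cells, and it fell by 2.53 on the log2 scale (edgeR, adjusted p = 7.22e-06). In EKLF/GFP+ cells Klf1 lay at 2278 to 2626 normalized counts, against 747.5 to 1194 in EKLF/GFP- cells, a rise by 1.35 (adjusted p = 0.000313). Normalized counts are read counts scaled to a common library size, and they are not divided by gene length. Both checks went in the direction of the labels.

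Promoters are shown for Cox6b2, Ndufs3 and Ndufs7, because these were the only members called in both bulk comparisons. Each line holds the 250 bases before the RefSeq transcription start, 5′ to 3′ on the gene's strand, on GRCm38.p6. Capitals mark a match, on either strand, to 1 of 4 searched motifs. These were the NRF1 core GCGCANGCG, the ETS core CCGGAAG that GABP binds, the YY1 core AAGATGGC and the CACCC-type EKLF motif CCNCNCCC, where N is any base. The Cox6b2 window is chr7:4753095-4753344 (minus strand), the Ndufs3 window is chr2:90904722-90904971 (minus strand) and the Ndufs7 window is chr10:80249199-80249448 (plus strand). The GENCODE annotation gives Ndufs7 as chr10:80249121-80256794, so by it the whole Ndufs7 window lies inside the gene. It ends Ndufs3 at chr2:90904827, so the near part of that window, with the ETS match, lies inside the gene. The Cox6b2 window adjoins its gene in both annotations.
Cox6b2: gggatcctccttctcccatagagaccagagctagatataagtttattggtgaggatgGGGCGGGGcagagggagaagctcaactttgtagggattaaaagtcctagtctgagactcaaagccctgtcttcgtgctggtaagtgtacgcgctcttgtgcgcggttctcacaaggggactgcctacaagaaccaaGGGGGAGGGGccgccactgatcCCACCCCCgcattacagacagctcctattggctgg
Ndufs3: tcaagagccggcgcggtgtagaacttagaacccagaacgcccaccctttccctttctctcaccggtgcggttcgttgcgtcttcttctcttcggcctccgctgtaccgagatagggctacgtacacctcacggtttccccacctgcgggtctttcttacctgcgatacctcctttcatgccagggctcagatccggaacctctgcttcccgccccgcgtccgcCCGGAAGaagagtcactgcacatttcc
Ndufs7: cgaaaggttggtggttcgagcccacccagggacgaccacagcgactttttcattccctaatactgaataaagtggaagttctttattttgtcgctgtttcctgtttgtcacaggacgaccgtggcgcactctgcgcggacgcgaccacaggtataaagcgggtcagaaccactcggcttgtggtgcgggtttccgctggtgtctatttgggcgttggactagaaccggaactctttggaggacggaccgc
The Cox6b2 window held 4 matches to the EKLF motif, of which a pair overlap each other, and none to the other 3 motifs. The Ndufs3 window held 1 match to the ETS core, which begins 27 bases before the RefSeq start. No letters of the 4 motifs were found in the Ndufs7 window. Promoters were found for 53 of the 71 members. The EKLF motif occurred in 27 of those 53 (50.9%) and in 45.6% of all 27025 promoters of the same length. The share with 4 matches, as in Cox6b2, was not counted. The NRF1 core occurred in 9 of 53 (17.0%) against 5.33% of all promoters, and the ETS core in 8 of 53 (15.1%) against 7.05%. The YY1 core occurred in 0 of 53 and in 1.59% of all promoters. A match describes letters only and was not tested as a binding site.

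The first comparison asked how F4/80+ cells without EKLF differ from EKLF+/+ cells. Most respiratory chain members had a positive log2 fold change in EKLF-/- cells, and Cox6b2 rose most. The 67 members together took 0.666%, 0.597% and 0.712% of the counts in the 3 EKLF+/+ libraries. In the 3 EKLF-/- libraries they took 0.778%, 1.058% and 0.847%. The groups did not overlap, and EKLF-/- replicate 2 stood above all others. Of the 67 members, 63 had enough counts to be tested, and 62 of those had a positive log2 fold change. By edgeR's quasi-likelihood test, 11 members rose and 1 fell at an adjusted p under 0.05. The 11 are 17.5% of the 63, beside 9.72% of all 12753 genes tested that rose. The single fall is 1.59%, beside 10.6% of all genes that fell. The median log2 fold change of the members was 0.42, and that of all genes was 0.016. For 32 members (50.8%) all EKLF-/- values lay above all EKLF+/+ values, against 22.9% of all genes, and for 1 member all lay below, against 23.4% of all genes.

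**Figure D1:**
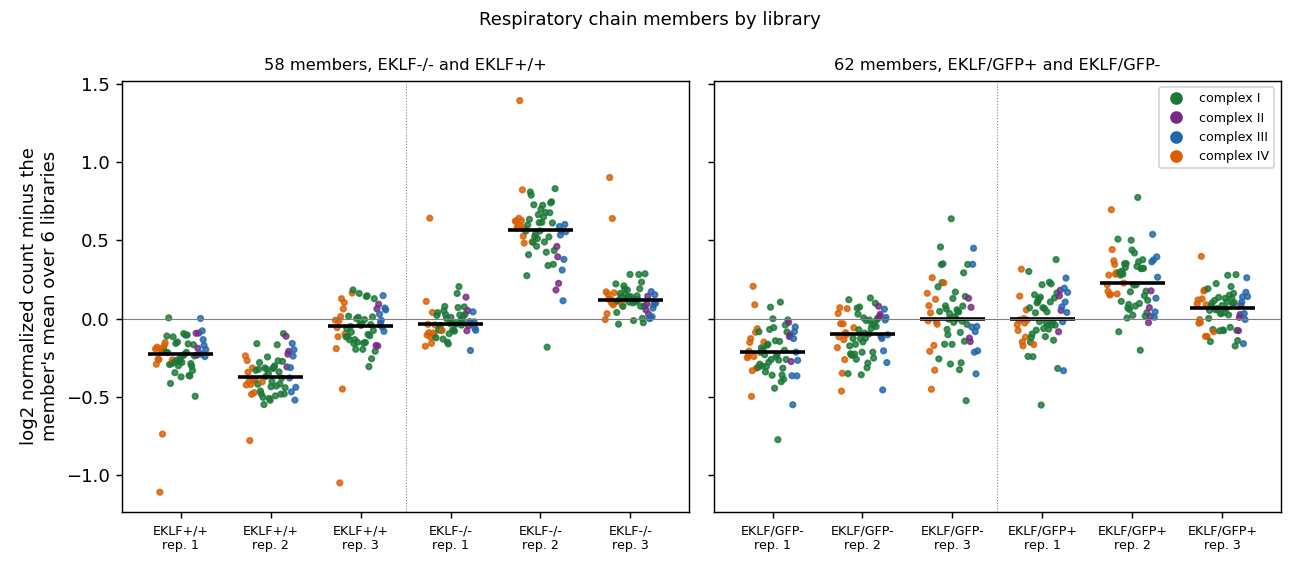
Each point is 1 member, colored by complex, and members averaging under 100 normalized counts are not drawn. The vertical axis is its log2 normalized count minus its own mean over the 6 libraries of the comparison, and black bars are medians over members. EKLF-/- replicate 2 stands above the other libraries on the left, while on the right the EKLF/GFP- and EKLF/GFP+ libraries overlap.

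This rise moved with 1 library and with transcript length. EKLF-/- replicate 2 held the highest value of 60 of the 63 members, and also of 34.1% of all genes tested. Without it the median of the members was 0.22, and 11 members were called higher, beside 10.2% of all genes. Members have short transcripts, with a median length of 655 bases against 2147 bases for the 11197 of 12753 tested genes with a length. Among all tested genes the median log2 fold change was 0.40 for transcripts of up to 500 bases, 0.34 from 500 to 750 bases and -0.46 above 5000 bases. The members of the same length classes had medians of 0.46 and 0.49. With offsets that remove the trend on length, the median of the members fell to 0.10, and 8 of 63 members were called higher, beside 10.6% of all genes. Of those 8, 7 were also called without the offsets. The number called higher was 2, 3 and 2 without EKLF+/+ replicate 1, 2 or 3, 35 without EKLF-/- replicate 1 and 3 without EKLF-/- replicate 3. Of all genes, 2.75%, 3.33%, 2.94%, 13.7% and 3.37% were higher in those fits, so that only the count of 35 stood well above the share of all genes. Cox6b2 and Ndufs3 were called whichever library was left out. So was the lower Ndufa4l2, but it could pass the filter on low counts through the EKLF+/+ libraries alone. Its calls are therefore no independent support.

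**Figure D2:**
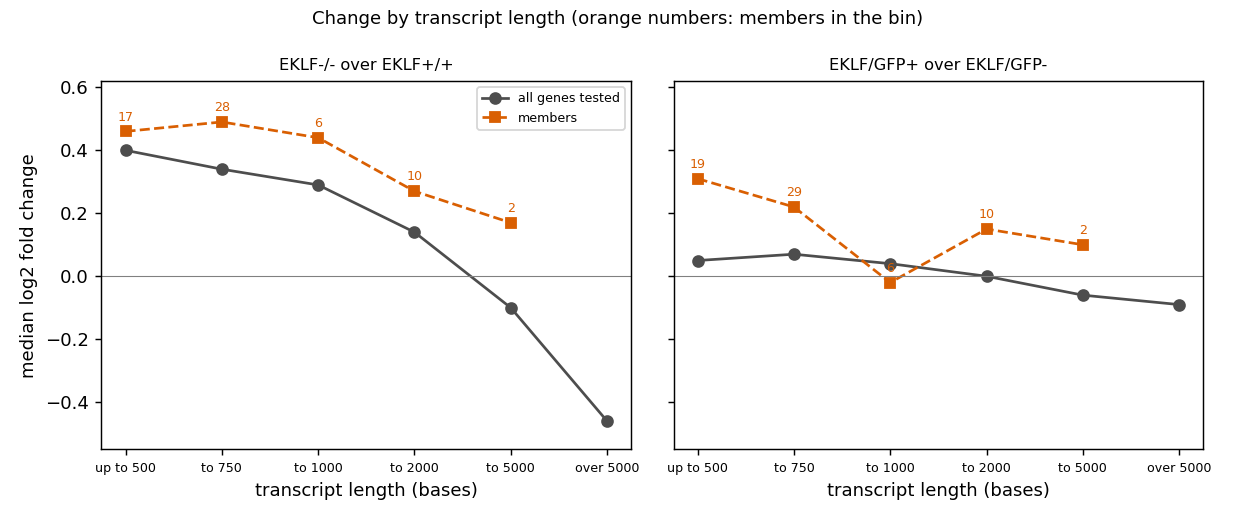
Median log2 fold change by transcript length, for all genes tested (dark circles) and for members (orange squares, with the number of members). In EKLF-/- cells both lines fall from short to long transcripts, from 0.40 to -0.46 for all genes, while in EKLF/GFP+ cells the line of all genes runs from 0.05 to -0.09. The members' classes above 750 bases hold 10 or fewer genes each.

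In complex I, all 34 tested members had a positive log2 fold change in EKLF-/- cells, with a median of 0.50, and 7 rose (20.6%, beside 9.72% of all genes). Ndufv3, an accessory subunit of the NADH-binding module, lay at 520.0, 540.1 and 634.7 normalized counts in EKLF+/+ cells. In EKLF-/- cells it lay at 747.6, 1304 and 894.4, and it rose by 0.80 ± 0.20 (SE, log2; adjusted p = 0.0277). Its groups did not overlap, with the highest value in EKLF-/- replicate 2. Ndufv3 was called under 11 of 15 alternative settings, and its log2 fold change ranged from 0.43 to 0.96 over all settings. Ndufs3, a core subunit of the arm that carries electrons from NADH to ubiquinone, lay at 883.1, 897.5 and 918.5 in EKLF+/+ cells. In EKLF-/- cells it lay at 1309, 1631 and 1381, a rise by 0.68 ± 0.11 (adjusted p = 0.00514). The EKLF+/+ libraries were close to each other for Ndufs3, and it was called under all 15 alternative settings, at 0.35 with length offsets. Ndufs3 shares 88 exon bases with Kbtbd4. Ndufs7, a core subunit that holds an iron-sulfur cluster, lay at 1272, 1206 and 1314 in EKLF+/+ cells and at 1525, 2633 and 1845 in EKLF-/- cells. Ndufs7 rose by 0.66 ± 0.18 (adjusted p = 0.0382), and it was called under 9 of 15 alternative settings. The other 4 that rose, Ndufa6, Ndufa7, Ndufa8 and Ndufs4, are accessory subunits with rises of 0.50 to 0.68.

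Complex II has 4 subunits, all nuclear. Sdha binds the flavin and oxidizes succinate, Sdhb carries the iron-sulfur clusters, and Sdhc and Sdhd anchor the enzyme in the membrane. Sdhc lay at 1187, 1156 and 1199 normalized counts in EKLF+/+ cells and at 1402, 1779 and 1494 in EKLF-/- cells. It rose by 0.40 ± 0.11 (log2, SE; adjusted p = 0.0396), a call that held under 8 of 15 alternative settings. Sdha lay at 4724, 4663 and 4476 in EKLF+/+ cells and at 5543, 5722 and 5240 in EKLF-/- cells. Its groups did not overlap either, but the log2 difference of 0.25 ± 0.10 did not pass the test (adjusted p = 0.103). Sdhb and Sdhd overlapped between the groups, with log2 differences of 0.33 ± 0.16 and 0.14 ± 0.12.

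None of the 8 members of complex III passed the test in EKLF-/- cells by edgeR, with log2 fold changes of 0.14 to 0.48 and a median of 0.35. Of these, 3 had an unadjusted p under 0.05. DESeq2 called 0 of the 8 as well. For 2 of the 8 members all EKLF-/- values lay above all EKLF+/+ values, near the 22.9% of all genes.

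Complex IV held the largest changes, with 3 rises (17.6%, beside 9.72% of all genes) and 1 fall among 17 tested members. Cox6b2 (ENSMUSG00000051811), the isoform of subunit 6B known from testis, is encoded on the minus strand of chr7:4751792-4753094 (GRCm38). It lay at 428.3, 538.3 and 446.3 normalized counts in EKLF+/+ cells. In EKLF-/- cells it lay at 1441, 2425 and 1725. All 3 EKLF-/- values exceeded every EKLF+/+ value, and Cox6b2 rose by 1.98 ± 0.20 on the log2 scale, or 3.95-fold (adjusted p = 0.000429). It was called under all 15 alternative settings, at 1.52 to 2.14. Cox6b1, the widely expressed isoform, lay at 1691, 1534 and 2007 in EKLF+/+ cells and at 1904, 3160 and 2208 in EKLF-/- cells. Its groups overlapped, with a log2 difference of 0.47 ± 0.19 (adjusted p = 0.106).

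Cox7a2l, a gene studied for a part in supercomplexes of complexes III and IV, lay at 580.3, 777.5 and 708.4 in EKLF+/+ cells. In EKLF-/- cells it lay at 994.4, 1711 and 1507. It rose by 1.03 ± 0.20 (adjusted p = 0.0116) without overlap between the groups. The call held under 13 of 15 alternative settings, at 0.67 to 1.22 over all settings, and was lost without EKLF+/+ replicate 1 or 3. Another gene has a transcript that is nearly identical to that of Cox7a2l over at least 100 bases, so its counts are less certain. Cox5a, a nuclear-encoded subunit outside the catalytic core of the enzyme, was the third to rise, by 0.62 ± 0.15 (adjusted p = 0.0246). It lay at 1244, 1135 and 1333 in EKLF+/+ cells and at 1643, 2346 and 1714 in EKLF-/- cells, without overlap, and 269 of its exon bases are shared with Gm26631.

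Ndufa4l2, the paralog of Ndufa4 known to be induced in hypoxia, was the only member that fell. It was a rare transcript, at 34.99, 141.8 and 75.82 normalized counts in EKLF+/+ cells and at 0.907, 8.98 and 11.1 in EKLF-/- cells. The groups did not overlap, although the EKLF+/+ values were spread over more than the distance between the groups. The 3 EKLF+/+ libraries held 262 reads of Ndufa4l2 and the 3 EKLF-/- libraries 21. The pooled reads were 12.9-fold lower per read counted (95% interval 8.26 to 21.2, counting error only), and the fitted change was -3.62 ± 0.68 (adjusted p = 0.00955). Ndufa4l2 would have passed the filter on low counts through the EKLF+/+ libraries alone, so the call is no independent support for the fall. A stretch of 32 exon bases lies opposite to Shmt2. Ndufa4 itself lay at 1699, 1542 and 2285 and at 1937, 2865 and 2169, with overlapping groups.

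The remaining isoform pairs did not pass the test in EKLF-/- cells by edgeR, while DESeq2 called Cox6a1 (log2 0.49, adjusted p = 0.0295). The widely expressed Cox4i1, Cox6a1, Cox7a2, Cox7b and Cox8a had log2 differences of 0.33, 0.50, 0.40, 0.36 and 0.45. Their restricted counterparts were rare. Cox4i2, an isoform of lung that responds to oxygen, lay at 16.9 to 72.9 normalized counts over the 6 libraries, Cox6a2 of heart and muscle at 6.03 to 19.96, and Cox7a1 of heart and muscle at 13.05 to 37.9. Cox7b2, Cox8b and Cox8c had 0 to 2 reads in each library and were not tested.

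**Figure D3:**
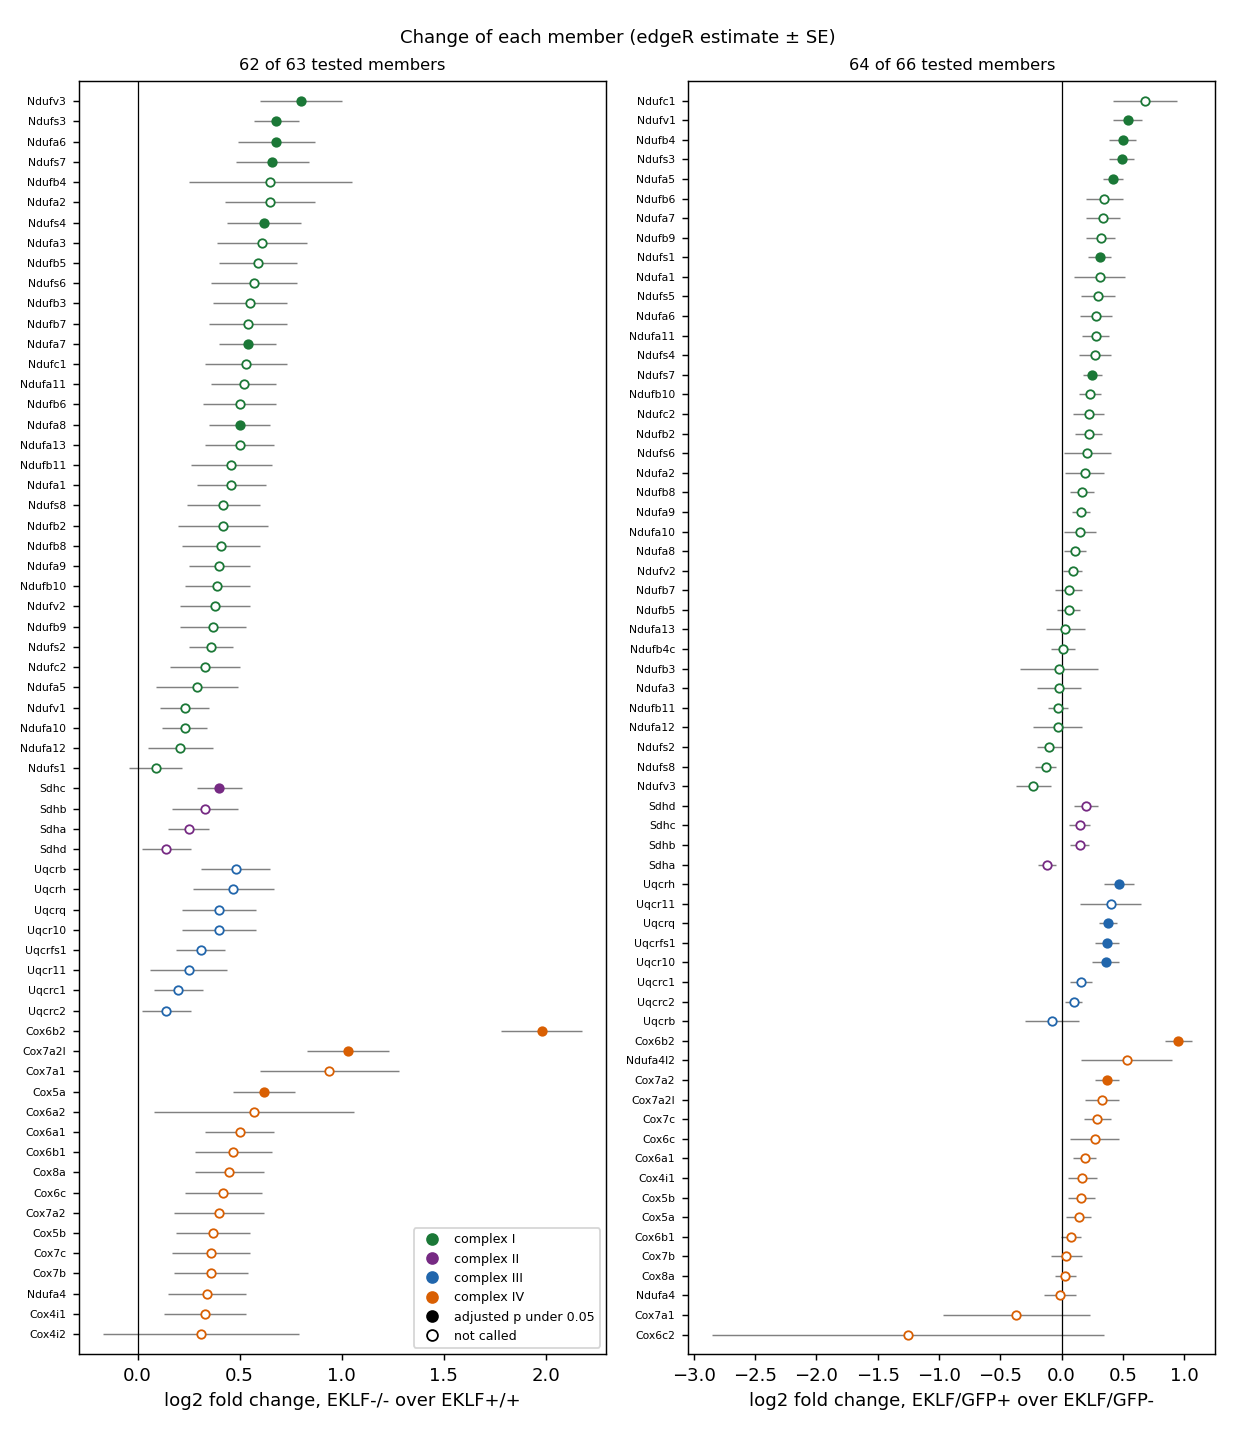
The log2 fold change of each tested member with its SE, by edgeR, grouped by complex, for EKLF-/- over EKLF+/+ cells (left) and EKLF/GFP+ over EKLF/GFP- cells (right). Filled points have an adjusted p under 0.05. Members past 2.5 in size are not drawn (Ndufa4l2 at -3.62 on the left, Cox4i2 at -4.63 and Cox6a2 at -4.86 on the right).

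Markers of other cell types in the sort moved with genotype too. The summed normalized counts of 8 neutrophil markers were 72420 to 94550 in EKLF+/+ cells and 99450 to 193400 in EKLF-/- cells. The sum of 7 monocyte markers went from 4949 to 5683 up to 6103 to 7855. By edgeR 2 of these 7 were higher, and by DESeq2 3 were higher and 1 lower. The sum of 10 erythroid markers went from 145700 to 171200 down to 51960 to 73050. The erythroid list holds Klf1 itself, its largest fall, and other erythroid genes, a kind of gene that EKLF activates. Its direction was therefore set in part by the genotype and gives no count of erythroid cells. The sum of 11 macrophage markers was 4232 to 5222 in EKLF+/+ and 4201 to 6626 in EKLF-/- cells, and 3 of the 11 fell, with a median log2 fold change of -0.28. The sums of 5 endothelial and 5 progenitor markers did not overlap either, at 2044 to 2478 and 8045 to 9540 in EKLF+/+ cells and at 1168 to 1370 and 6102 to 6450 in EKLF-/- cells. In each of these lists 4 of 5 markers fell, as did 3 of 5 mesenchymal markers. Of the listed markers, only Hba-a1 was at 0 reads in every library of this table, among all the lists named here. The part of these cell types in the members' levels was not tested. In bulk samples fewer cells of a type and less RNA per cell cannot be told apart.

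Genes that work beside the members were counted from lists. Of 17 ATP synthase subunits (complex V) 2 rose (11.8%, beside 9.72% of all genes), with a median log2 fold change of 0.41. The larger rise was that of Atp5d, a subunit of the rotor stalk (0.57 ± 0.15, adjusted p = 0.0328). Of 9 electron carriers and feeders 1 rose (11.1%), Etfb, which passes electrons from fatty acid oxidation (0.71 ± 0.21, adjusted p = 0.0441). Of 26 assembly factors 1 rose (3.85%), the complex I factor Ndufaf3 (0.95 ± 0.20, adjusted p = 0.0137). Of 17 regulators of mitochondrial gene expression 1 fell, Pprc1, a coactivator of NRF1 (-0.86 ± 0.11, adjusted p = 0.00212). Of 18 tricarboxylic acid cycle enzymes 0 were called by edgeR, while 4 were higher and 2 lower at an unadjusted p under 0.05, and DESeq2 called 1 higher and 2 lower. Their median was 0.07. The medians of these lists were 0.24 for carriers, 0.20 for assembly factors and -0.07 for regulators.

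The second comparison asked how cells with an active EKLF promoter differ from those without it. Of 66 tested members, 52 did not pass the test between EKLF/GFP+ and EKLF/GFP- cells, and 2 rare isoforms of complex IV were close to 0 reads in EKLF/GFP+ cells. The 71 members took 0.650%, 0.662% and 0.757% of counts in the EKLF/GFP- libraries, and 0.712%, 0.778% and 0.712% in the EKLF/GFP+ libraries. These ranges overlap. Of 66 tested members, 12 rose and 2 fell by edgeR. The 12 are 18.2% of the members, beside 18.9% of all 14238 genes tested, a share near that of all genes. The 2 falls are 3.03%, beside 25.8% of all genes. The median log2 fold change was 0.18 for members and -0.013 for all genes. For 18 members all EKLF/GFP+ values lay above all EKLF/GFP- values (27.3%, against 25.2% of all genes), and for 3 members all lay below, against 30.5% of all genes. The number that rose was 7 without EKLF/GFP- replicate 1, 21 without EKLF/GFP- replicate 3 and 10 to 18 without any other library. Of all genes, 13.9% and 16.7% rose in the first and second of these fits and 16.4% to 19.8% in the others.

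This table also gives TPM, levels per transcript length on a common total, which allow genes to be compared. The members summed to 13970 to 15260 TPM in EKLF/GFP- cells and to 15410 to 16180 TPM in EKLF/GFP+ cells. Complex IV made up the largest part, with a mean sum of 7385 ± 231.9 TPM (SD, n = 3) in EKLF/GFP+ cells, and complex II the smallest, with 464.1 ± 26.7 TPM. Cox6b1 was the most abundant member there (1811 ± 25.9 TPM), ahead of Cox5b (1507 ± 39.3 TPM), a subunit that binds zinc. Ndufa5 followed at 791.2 ± 40.0 TPM and Cox7a2 at 746.4 ± 50.2 TPM, a difference that was not tested. Sdhb and Sdhd, at 53.1 ± 5.16 and 49.1 ± 1.26 TPM, lay close together, with Sdhb above Sdhd in each of the 3 libraries, and far below Sdha at 254.5 ± 27.8 TPM. The 13 mitochondrially encoded subunits summed to 25420 to 36480 TPM in EKLF/GFP- and to 24860 to 29210 TPM in EKLF/GFP+ cells, with overlapping ranges. Near-identical copies were searched for the members only, and not for these 13 genes.

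In complex I, 6 of 36 tested members rose in EKLF/GFP+ cells (16.7%, near the 18.9% of all genes). Ndufv1, the core subunit that binds NADH and flavin, lay at 1516, 1754 and 1263 normalized counts in EKLF/GFP- cells. In EKLF/GFP+ cells it lay at 2359, 2051 and 2207, a rise by 0.54 ± 0.12 (log2, SE; adjusted p = 0.00797) without overlap. Ndufb4, an accessory subunit of the membrane arm, rose by 0.50 ± 0.11 (adjusted p = 0.00674), from 935.6, 1036 and 1073 to 1397, 1629 and 1274. Transcripts of 2 other genes, 1 of them Ndufb4c, are nearly identical to that of Ndufb4, and its counts here rest on how Salmon divided the reads. Another gene also has a transcript nearly identical to that of Ndufs3, which lay at 1439, 1822 and 1565 in EKLF/GFP- cells and at 2219, 2374 and 2193 in EKLF/GFP+ cells. It rose by 0.49 ± 0.10 (adjusted p = 0.00458). Ndufs7 rose by 0.25 ± 0.076 (adjusted p = 0.0266), from 1355, 1522 and 1410 to 1708, 1725 and 1672, and this call held under 8 of 15 alternative settings. Ndufa5 and Ndufs1, the core subunit with the most iron-sulfur clusters, rose by 0.42 and 0.31.

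Of the 4 members of complex II, 0 passed the test in EKLF/GFP+ cells by edgeR, 0 by DESeq2 and 0 at an unadjusted p under 0.05. Sdha lay at 10630, 11420 and 11830 normalized counts in EKLF/GFP- cells and at 10200, 10620 and 10250 in EKLF/GFP+ cells, a log2 difference of -0.12 ± 0.074 (adjusted p = 0.216). The other 3 overlapped between the groups, with log2 differences of 0.15 for Sdhb, 0.15 for Sdhc and 0.20 for Sdhd.

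Complex III was the complex with the highest median, 0.36, and 4 of its 8 members rose, beside 18.9% of all genes. Uqcrh, the hinge protein beside cytochrome c1, lay at 3373, 3578 and 4198 normalized counts in EKLF/GFP- cells. It lay at 4468, 5715 and 5209 in EKLF/GFP+ cells and rose by 0.47 ± 0.12 (adjusted p = 0.0121). Uqcrq, a small subunit that binds ubiquinone, lay at 2313, 2590 and 2413 and at 3125, 3342 and 3068. Its rise by 0.38 ± 0.075 (adjusted p = 0.004) was called under all 15 alternative settings. Uqcrfs1, the Rieske iron-sulfur protein, and Uqcr10, a small subunit, rose by 0.37 and 0.36. The core proteins Uqcrc1 and Uqcrc2 did not pass the test.

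In complex IV, Cox6b2 lay at 538.6, 551.3 and 555.9 normalized counts in EKLF/GFP- cells and at 945.9, 1231 and 1001 in EKLF/GFP+ cells. It rose by 0.95 ± 0.11 on the log2 scale (adjusted p = 0.000272) with no overlap, and it was called under all 15 alternative settings. Cox6b1 overlapped between the groups, at 6548, 6996 and 7339 against 7105, 7968 and 7031. In TPM Cox6b2 was at 74.95 ± 2.63 in EKLF/GFP- and 138.0 ± 8.95 in EKLF/GFP+ cells, well below the 1746 ± 68.3 and 1811 ± 25.9 of Cox6b1. Cox7a2, the widely expressed form of subunit 7A, rose by 0.37 ± 0.10 (adjusted p = 0.0168), from 4820, 5192 and 5061 to 5698, 7361 and 6441.

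Cox4i2 and Cox6a2 fell, and both passed the filter on low counts only through the EKLF/GFP- libraries, so their calls are no independent support for the fall. Cox4i2 lay at 51.6, 56.1 and 53.2 normalized counts in EKLF/GFP- cells and at 0.947, 1.08 and 4.15 in EKLF/GFP+ cells. The groups were far apart, with 164 reads in all in EKLF/GFP- and 6 in EKLF/GFP+ cells, 27.3-fold fewer per read counted (95% interval 12.3 to 75.6, counting error only). The fitted change was -4.63 ± 0.43 (adjusted p = 8.96e-05). Cox6a2 lay at 18.8, 22.1 and 28.8 in EKLF/GFP- cells and at 1.89, 0 and 0 in EKLF/GFP+ cells. That is 70 reads against 2, 35.0-fold fewer (95% interval 9.34 to 295.0), with a fitted change of -4.86 ± 0.69 (adjusted p = 0.000732). Cox6a2 shares 70 exon bases on the opposite strand with Itgad. Their widely expressed partners Cox4i1 and Cox6a1 had log2 differences of 0.17 ± 0.12 and 0.19 ± 0.094, and neither passed the test. Cox7a1 and Ndufa4l2 were rare and overlapped between the groups.

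**Figure D4:**
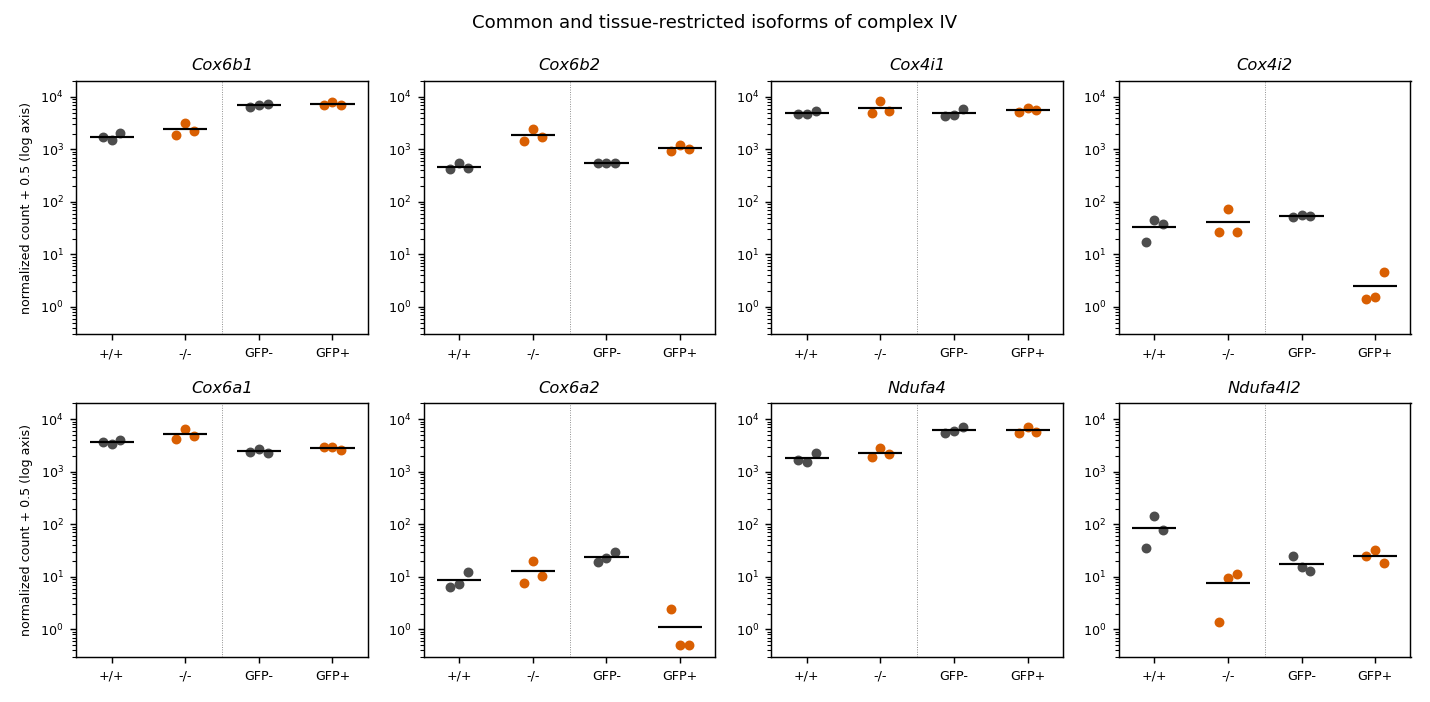
Normalized count plus 0.5 on a log axis for the widely expressed (Cox6b1, Cox4i1, Cox6a1, Ndufa4) and restricted (Cox6b2, Cox4i2, Cox6a2, Ndufa4l2) isoforms of complex IV, 1 point a library with the mean as a bar. The 2 comparisons were normalized separately, so heights compare only within a panel's left or right side. Cox6b2 is higher in both orange groups, at 1441 to 2425 and 945.9 to 1231. Cox4i2 and Cox6a2 lie below 5 in EKLF/GFP+ cells, and Ndufa4l2 lies lowest in EKLF-/- cells.

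Markers of other cells moved in this comparison as well. The sum of 8 neutrophil markers was 105400 to 122000 normalized counts in EKLF/GFP- and 12250 to 19500 in EKLF/GFP+ cells, and that of 7 monocyte markers 17950 to 21350 and 2136 to 2564. The sum of 12 erythroid markers was 205900 to 273400 in EKLF/GFP- and 385800 to 493600 in EKLF/GFP+ cells. This list holds Klf1, whose promoter drives the GFP used for the sort, so its direction was set in part by the sort. The sum of 12 macrophage markers overlapped, at 9912 to 15160 and 7475 to 19210. The sum of 5 progenitor markers was 19660 to 22670 in EKLF/GFP- and 7597 to 9988 in EKLF/GFP+ cells (5 of 5 fell), and that of 5 megakaryocyte markers 1999 to 2518 and 3313 to 5243 (5 of 5 rose). The 5 endothelial markers summed to 4528 to 5104 and 1455 to 2332. No marker of these 7 lists was at 0 in all libraries, and their part in the members' levels was not tested.

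Of 17 ATP synthase subunits 2 rose in EKLF/GFP+ cells (11.8%, beside 18.9% of all genes), with Atp5l, a subunit of the membrane part, at 0.51 ± 0.14 (adjusted p = 0.0206). Of 9 carriers and feeders 2 rose (22.2%) and 3 fell. The largest rise was that of Ndufab1, the mitochondrial acyl carrier protein (0.32 ± 0.094, adjusted p = 0.0241), and the largest fall that of Sqor, which oxidizes sulfide (-1.60 ± 0.27, adjusted p = 0.00183). Of 44 assembly factors 6 rose (13.6%) and 1 fell, beside 25.8% of all genes that fell. The rises were led by Cox11, a copper chaperone of complex IV (0.88 ± 0.18, adjusted p = 0.0049), and the fall was that of Sco1, another copper chaperone (-0.37 ± 0.097, adjusted p = 0.0162). Of 18 regulators 7 rose, among them Gabpb2, a subunit of GABP (0.49 ± 0.070, adjusted p = 0.000783). The regulators that rose were 38.9% of their list. Of 18 tricarboxylic acid cycle enzymes 5 rose (27.8%) and 2 fell, with citrate synthase (Cs) at 0.35 ± 0.12 (adjusted p = 0.0431) and Idh2, the mitochondrial isocitrate dehydrogenase that makes NADPH, at -1.21 ± 0.071 (adjusted p = 1.48e-05). Of the 13 mitochondrially encoded subunits 1 fell, mt-Atp6 of ATP synthase (-0.55 ± 0.18, adjusted p = 0.0357). These 13 were measured unevenly, from 19.93 to 115.8 normalized counts for mt-Nd3 to 99510 to 141900 for mt-Co1. Whether they share reads with copies was not examined.

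Set side by side, 63 members were tested in both comparisons. Cox6b2, Ndufs3 and Ndufs7 were called in both, each higher in EKLF-/- and higher in EKLF/GFP+ cells. A further 9 were called only in EKLF-/- cells and 11 only in EKLF/GFP+ cells, and the difference between the comparisons was not tested. Of all genes tested, 9.72% rose in EKLF-/- cells and 18.9% rose in EKLF/GFP+ cells. The share of all genes that rose in both was not counted. Whether members were called in both more often than other genes is therefore not known. For Cox6b2 the log2 fold changes were 1.98 and 0.95, for Ndufs3 0.68 and 0.49 and for Ndufs7 0.66 and 0.25. The sum of the erythroid markers, a list that holds Klf1 itself, was lower in the first of these comparisons and higher in the second.

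The single-cell library held 3096 barcodes, of which 3093 with at least 200 detected genes were kept, with a median of 18605 counts each. Doublets were not removed. The members, the pathway lists and the mitochondrially encoded genes were kept out of the variable genes, so that the 16 clusters were not drawn by the genes described. With 1 sample there is no test, and intervals cover counting error only. By the marker lists, clusters 0 and 3 were macrophage-like (724 cells) and clusters 6, 7 and 10 were erythroid-like (478 cells). Clusters 4, 5, 11, 13, 14 and 15 were monocyte-, neutrophil-, megakaryocyte-, endothelial-, hepatoblast- and mast cell- or basophil-like, and 5 clusters with 1117 cells (36.1%) stayed unnamed. The limit for a name was set after the data were seen.

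Members' transcripts were found in every cluster, at 4985 to 26022 CPM in sum (CPM, counts scaled to a common total for each cluster or class). Their level relative to all transcripts depended on globin. Macrophage-like cells held 19071 CPM (95% Poisson interval 18998 to 19145) and erythroid-like cells 14722 CPM (14653 to 14791), a ratio of 0.772. Globin took 12.17%, 76.16% and 60.29% of the counts in the erythroid-like clusters 6, 7 and 10, and 0.76% and 1.24% in the macrophage-like clusters. With globin counts left out of the totals, a choice made after seeing the data, the sums were 24369 and 19239 CPM and the ratio turned to 1.27. Cluster 7, with the most globin, went from 4985 to 20913 CPM by this change, and cluster 10 from 9779 to 24629 CPM. The ratio of erythroid-like to macrophage-like cells thus has no single direction.

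**Figure D5:**
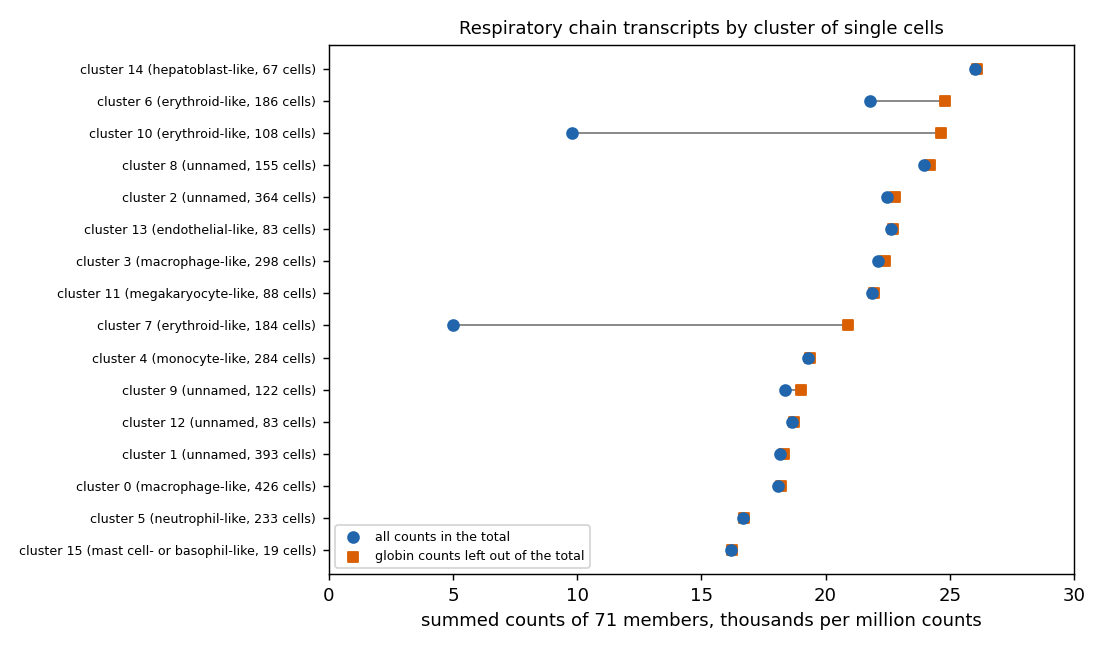
Summed level of the 71 members in each of 16 clusters, on an axis of CPM divided by 1000, with all counts in the total (blue circles) and with globin counts left out of the total (orange squares). The 3 erythroid-like clusters (6, 10 and 7) move from 21793, 9779 and 4985 to 24811, 24629 and 20913 CPM, while the clusters of other classes hardly move.

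Among members with at least 100 counts in either class, 61 had a ratio of erythroid-like to macrophage-like CPM. The ratio was above 1 for 13 and below 1 for 48, with a median of 0.771. Without globin in the totals it was above 1 for 49 and below 1 for 12, with a median of 1.26. Single genes departed from this common shift. Cox6b2 had 134.5 CPM (128.0 to 141.3) in erythroid-like cells and 7.37 CPM (5.99 to 8.97) in macrophage-like cells, a ratio of 18.3, the highest of the 61 members. The next was Ndufb10, a subunit of the membrane arm of complex I, at 1.49. Ndufb10 was at 423.8, 46.7 and 179.5 CPM in clusters 6, 7 and 10, and at 172.4 and 211.1 CPM in the macrophage-like clusters. Without globin its ratio was 2.44, with 482.5, 195.7 and 452.0 CPM in clusters 6, 7 and 10 and 173.7 and 213.8 CPM in the macrophage-like ones. Cox6b2 was also high in unnamed cluster 8 (179.7 CPM) and in megakaryocyte-like cells (119.8 CPM), and lower in neutrophil-like (55.2 CPM) and monocyte-like cells (20.4 CPM). Among the 3 erythroid-like clusters it took 160.3, 489.9 and 357.4 CPM in clusters 6, 7 and 10 with globin left out of the totals. The widely expressed Cox6b1 had a ratio of 0.771, the median of all members.

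Cox5a and the 4 succinate dehydrogenase genes had a ratio below 1 under both totals. Cox5a had 365.5 CPM (354.8 to 376.5) there and 1355 CPM (1336 to 1375) in macrophage-like cells, a ratio of 0.27 that was 0.443 without globin. Its level was above 1200 CPM in both macrophage-like clusters and between 163.7 and 543.2 CPM in the erythroid-like ones. Unnamed clusters 2 and 9 held 1379 and 1257 CPM of Cox5a, and unnamed cluster 1 held 865.0 CPM. The best marker list of each of these unnamed clusters was that of macrophages. Without globin the erythroid-like clusters lay at 468.2 to 686.8 CPM of Cox5a, beside 650.6 CPM in monocyte-like, 559.4 CPM in neutrophil-like and 661.5 CPM in endothelial-like cells, and the macrophage-like clusters at 1293 and 1598 CPM. Sdhb and Sdhc had ratios of 0.331 and 0.350, and 0.542 and 0.575 without globin. Sdha and Sdhd had ratios of 0.526 and 0.547, and 0.864 and 0.897 without globin. For Sdhd the clusters then overlapped, with 139.4 CPM in erythroid-like cluster 6 and 128.4 and 144.3 CPM in macrophage-like clusters 0 and 3. As a sum, complex II was at 636.4 CPM in macrophage-like and at 271.6 CPM in erythroid-like cells, and at 642.0 and 449.6 CPM without globin. Complex III was at 2719 and 2422 CPM, and its direction turned without globin, to 2743 and 4009 CPM. The sums of complexes I and IV turned likewise, from 7368 and 5887 to 7433 and 9744 CPM for complex I and from 8348 and 6142 to 8422 and 10167 CPM for complex IV. The ATP synthase subunits were at 7675 and 7436 CPM with globin and at 7743 and 12309 CPM without it. The tricarboxylic acid cycle enzymes, the pathway that holds complex II, were at 1596 and 951.8 CPM, and at 1610 and 1576 CPM without globin.

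Of the rare isoforms, Cox4i2 was found at 4.69 CPM (3.60 to 6.00) in macrophage-like and 0.419 CPM (0.136 to 0.977) in erythroid-like cells. It was highest in unnamed cluster 12 (20.4 CPM), whose best marker list was that of progenitors, and in monocyte-like cells (19.1 CPM). Ndufa4l2, which had 262 reads in the bulk EKLF+/+ libraries, had 0 counts in macrophage-like cells, where 3 counts would be 0.223 CPM. Cox6a2 had 9 counts in macrophage-like and 1 in erythroid-like cells, and it was highest in the same cluster 12 (38.6 CPM).

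Markers of each class were also counted in the other. The 12 erythroid markers summed to 7758 CPM in macrophage-like and to 377500 CPM in erythroid-like cells, and the 12 macrophage markers to 15600 and 762.8 CPM. The part of free RNA and doublets in the levels was not tested. Cox6b2 in macrophage-like cells stood at 7.37 CPM beside 134.5 CPM in erythroid-like cells.

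Some members could not be measured equally well in both kinds of table. Transcripts of 18 members match a transcript of another gene over at least 100 bases at 95% identity or more. Ndufs5, an accessory subunit of complex I, had 0 counts in all 6 EKLF+/+ and EKLF-/- libraries, a table in which 24.84% to 29.78% of reads were set aside as not uniquely aligned, but 778 to 1090 in the EKLF/GFP libraries and 235.0 CPM in macrophage-like cells. Ndufb4 had 9 to 40 counts in the first table and 969 to 1505 in the second. The pseudogene Cox6c2 had 265, 0 and 0 counts in the EKLF/GFP+ libraries and 348, 301 and 0 in the EKLF/GFP- libraries. Exons of 22 members overlap those of another gene, on the opposite strand for 20 of them, and the strand setting of the counting is not given in the sources used here. Cox6b2 shares no exon base with another gene and has no near-identical copy.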

How the data were processed

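F4/80+ cells of E13.5 fetal livers were sorted by FACS and sequenced as polyA single reads (12 bulk libraries), or selected with magnetic beads and sequenced by 10x Chromium V3 (1 library). For EKLF+/+ and EKLF-/- cells the authors deposited whole-number counts per gene from STAR (mm10) and htseq-count; the strand setting and tool versions are not given in the sources used here. For EKLF/GFP cells they deposited Salmon estimated counts and TPM per transcript (GRCm38), and these were summed per gene and the counts rounded. The single-cell counts deposited by the authors came from Alevin, which gives expected counts that need not be whole. A further 5 columns of the first table were not used.

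Each bulk comparison was fitted alone with edgeR 4.0.16 (TMM, quasi-likelihood test) on genes that reached 10 counts in 3 or more libraries; p-values were adjusted by Benjamini-Hochberg across every gene tested, with calls under 0.05. Each SE of a log2 fold change is the size of that change divided by the square root of edgeR's F statistic. The study used DESeq2, which is an alternative here (version 1.42.0). Nothing in the labels says that replicates came from separate animals, although the study calls them biological; p-values measure the spread between these libraries. With 3 against 3 libraries an exact permutation test cannot go below 0.10, so only the fit across all genes was used. The script was tested on simulated data. Alternatives were other scalings and filters, a replicate block, offsets for gene length, leaving out globin genes, and leaving out each library. Lengths were Salmon lengths weighted by reads. Single cells were clustered with Seurat 5.3.0 (30 components, resolution 0.8). A class name needed a median log2 difference of its markers of at least 1 (prior 10 CPM) and a marker among the 10 leading genes. Intervals are 95% Poisson intervals of summed counts.

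The members, gene lists and tests were chosen with earlier results of these data known. Named were the Sdh genes, the isoform sets of complex IV, up to 2 called members per complex and direction averaging 100 or more normalized counts, members called in both comparisons, and per pathway list the largest called rise and fall. Other members were named after their values were seen, among them Cox5a and Ndufb10. Promoters came from RefSeq and exon overlaps from GENCODE.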

Additional observations from a re-analysis of the deposited data

How the results depend on the processing

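Among the named members, 588 alternative values kept their side of the threshold, 28 were no longer called and 12 became called. Of the 588, 28 had the other sign, all of members not called, such as Cox4i1 (-0.03), Cox7a2 (-0.02) and Sdhd (-0.05) in EKLF-/- cells with gene length offsets. In EKLF-/- cells, 11 members were higher. DESeq2 called 21 of 63 (11.7% of all genes), library totals 22 (13%), the fit with a replicate block 4 (6.77%) and the replicate block with gene length offsets 4 (9.98%). Leaving out 1 library gave 2 to 35, with the most called without EKLF-/- replicate 1. The median log2 fold change of 0.42 became 0.1 with gene length offsets, 0.1 with the replicate block and length offsets, and 0.22 to 0.56 without 1 library. The 1 lower member, Ndufa4l2, left the test when 10 counts were required in every library, and 0 were then lower. In EKLF/GFP+ cells, 12 members were higher, 19 of 66 by DESeq2 (21.4% of all genes) and 7 to 21 without 1 library. The 2 lower members became 0 with 10 counts in every library and 0 to 2 without 1 library, since Cox4i2 and Cox6a2 then fell under the filter. Called under every setting were Cox6b2 and Ndufs3 in EKLF-/- cells, and Cox6b2, Ndufa5, Ndufb4, Ndufs3, Ndufv1 and Uqcrq in EKLF/GFP+ cells. Same-numbered replicates did not deviate together, with correlations of -0.005, 0.003 and 0.056 in the first comparison and 0.03, -0.09 and 0.024 in the second. They share only a number. The block gave 12 higher and 2 lower in the second, with Ndufc1 called in place of Ndufs7. The single-cell ratio of 0.772 moved to 0.572 with members, pathway lists and mitochondrially encoded genes kept among the variable genes, to 0.745 and 0.848 at resolutions 0.4 and 1.2, and to 0.735 without the 5% of cells with the most counts. It reversed to 1.27 with globin left out of the totals, an alternative chosen after seeing the data. The causes of the other changes were not tested. Members with few reads, such as Cox4i2, Cox6a2 and Ndufa4l2, are limited by depth.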
